A study of Mus musculus with 6 samples.

Results

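The genes described here are 10 genes of MHC class I antigen presentation and the immunoproteasome, namely H2-K1, H2-D1, H2-T23, B2m, Tap1, Tap2, Tapbp, Psmb8, Psmb9 and Nlrc5. They were chosen by symbol, and all 10 were found among the 21851 genes of the count table and passed the filter on low counts. The libraries were made by Smart-seq2, a full-length cDNA method, from mouse retinal cells sorted for CD45 and an intermediate level of CD11b, a gate labelled as microglia. Of the 6 libraries, 3 are labelled CD36 CKO, meaning a conditional knockout of that lipid scavenger receptor gene, and 3 are labelled CD36 flox, whose description codes read WT. The protocol describes intravenous sodium iodate at 20 mg/kg, an oxidant that injures the pigment epithelium, with buffer as its control, and eyes taken 7 days later. The labels used here do not say which injection a library had, which Cre driver was used, or the age of the mice. CKO 2 and CKO 3 carry 1 description code apart from the eye (OD or OS), and flox 2 and flox 3 likewise share a code. Each such pair may come from the eyes of 1 mouse, and p-values over 3 libraries against 3 would then be too small.

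MHC class I molecules carry peptides made inside the cell to its surface, where CD8 T cells and natural killer cells read them. Interferon-γ and other inflammatory signals exchange the catalytic subunits of the constitutive proteasome for those of the immunoproteasome, and TAP pumps the resulting peptides into the endoplasmic reticulum. There they are loaded onto a heavy chain paired with β2-microglobulin. Resting microglia make little class I, and its rise is a known feature of reactive microglia in the injured or ageing central nervous system.

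The libraries held 13462691 to 20018940 counts and 15174 to 16096 genes with a count. Levels are given as CPM, counts per fixed library size, with TMM factors that allow for differences in composition. At these depths 3 counts, the most that a count of 0 allows, are 0.150 to 0.223 CPM. Such floors cover counting error only, and the members had from 114 counts (Nlrc5 in the library labelled CKO 1) to 137485 counts (B2m in CKO 3). The microglial genes P2ry12 and Tmem119 were present in all 6 libraries, at no less than 82.4 and 174 CPM. Rod photoreceptor markers summed to 9852 to 24929 CPM. The targeted gene Cd36 was counted at 122, 65.2 and 28.5 CPM in those labelled CKO 1 to 3, against 90.5, 193 and 144 CPM in flox 1 to 3. The library labelled CKO 1 thus held more Cd36 than flox 1, and directions below follow the labels. The libraries also part by haemoglobin, the red cell protein whose 4 genes summed to 1946 CPM in the library labelled CKO 1 and to 1862 and 4368 CPM in flox 3 and flox 2. They summed to no more than 0.356 CPM in CKO 2, CKO 3 and flox 1. Libraries over 100 CPM are called haemoglobin-positive below and the others haemoglobin-negative. This split was made from the data, is not a group of the study, and follows the description codes, each class holding 1 CKO code and 1 flox code.

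The class I genes did not separate the genotypes. All 10 had a positive log2 fold change in CKO over flox, where 50.6% of all tested genes did, but the changes were small against the spread between libraries. They ranged from 0.12 for Nlrc5 to 0.50 for H2-K1, with a median of 0.25 against 0.004 for all 13477 tested genes. In the quasi-likelihood test of edgeR, adjusted by Benjamini-Hochberg over all tested genes, 0 of the 10 passed an adjusted p of 0.05 (percent called 0 over all genes), and each had an adjusted p of 0.9996. At an unadjusted p under 0.05 there were 0 of the 10, where 2.81% of all genes passed. That count depends on the library labelled CKO 1: without it H2-D1, H2-K1 and B2m had an unadjusted p of 0.0142, 0.0406 and 0.0424 (edgeR), 3 of the 10, where 8.47% of all genes passed, and adjusted p of at least 0.564. Without flox 1 (edgeR), or by limma-voom, 1 of the 10 was under 0.05, at lowest adjusted p of 0.788 and 0.792. The share of all genes under 0.05 was not counted for these settings, so these counts have no background to stand beside. DESeq2 also called 0 of the 10, where it called 23 genes, or 0.15%. The CKO and flox libraries overlapped for all 10 members; 3.88% of all genes had every CKO library above, and 4.12% every CKO library below, the flox libraries (8% in both directions). The libraries labelled CKO 1, flox 2 and flox 3 were low for every member and CKO 2, CKO 3 and flox 1 were high, as the plot of levels by library shows. With the haemoglobin class as a term in the fit, 6 of the 10 fold changes were positive and 4 were negative, where 50.2% of all genes were negative, and the median was 0.04.

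**Figure D1:**
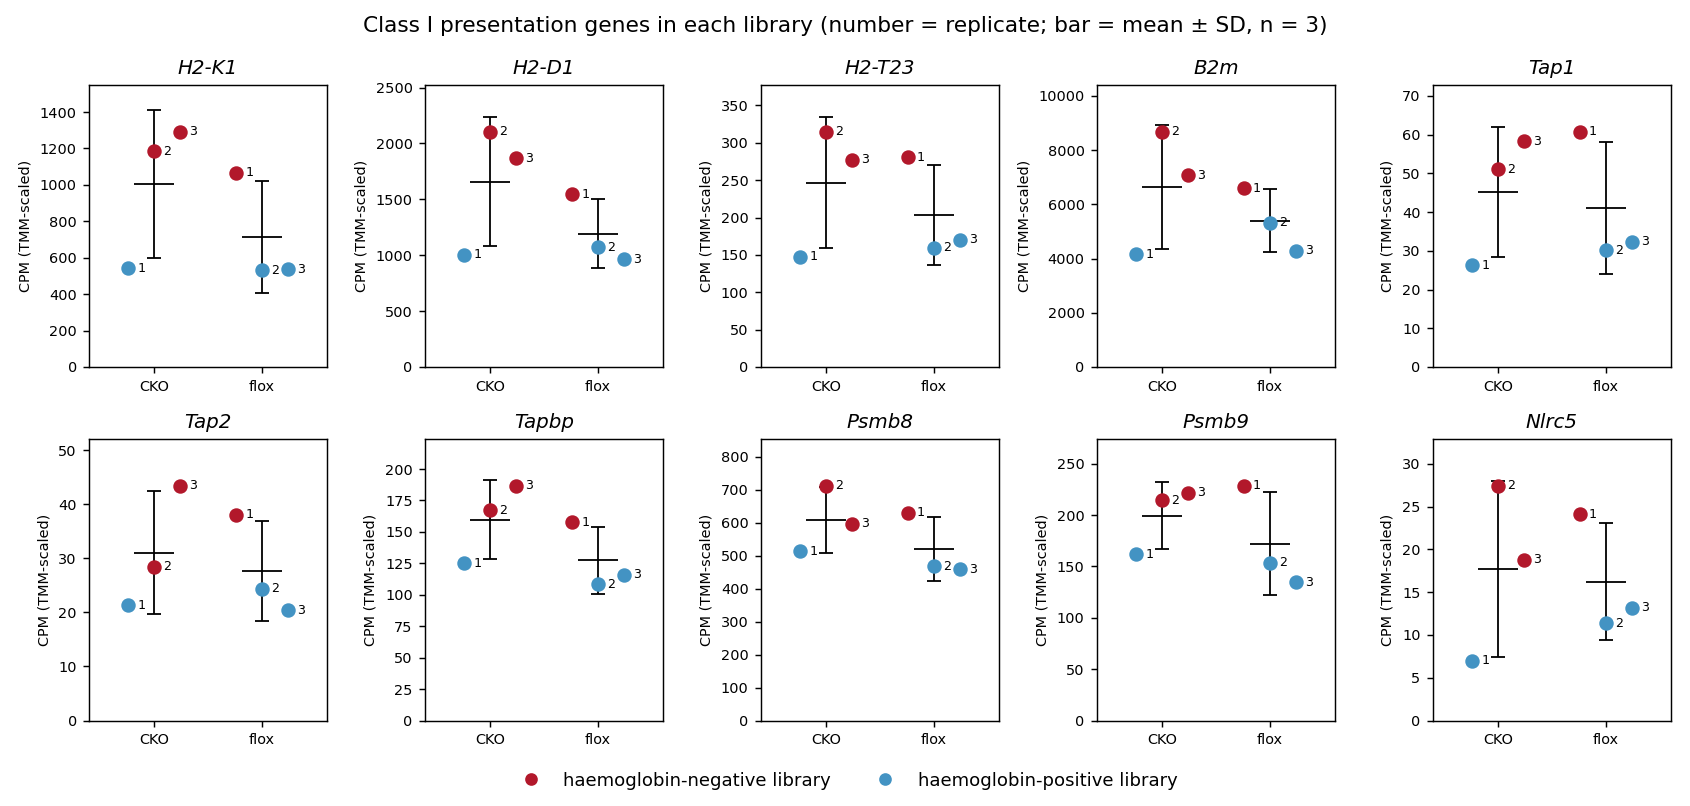
Level of each of the 10 genes (CPM, TMM-scaled, vertical axis from 0) in the 3 CKO and 3 flox libraries, with replicate numbers beside the points and the group mean ± SD as bars; red points are haemoglobin-negative and blue points haemoglobin-positive libraries. In every panel the 3 red points lie above the 3 blue points, and each genotype holds both colours.

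The promoters of the classical heavy chain genes, B2m and Tap1 are shown because the 10 genes moved together across the libraries and because class I promoters are known for a shared upstream module that NLRC5 uses. RefSeq promoters (GRCm38.p6, 250 bases before to 50 after the start) were matched for 8 of the 10 members. Capitals mark the motifs searched on both strands, which are TGACG, the core of a cAMP response element, and CCAAT, the box that NF-Y binds. Also searched were one end of a κB site, GGGGATT, and a STAT site, TTCNNNGAA. The last was an interferon regulatory factor pair, GAAA and a second GAAA with any 2 bases between them. The motifs overlapped each other in none of the promoters printed. Sequences run 5′ to 3′ on the strand of the gene, which is minus for H2-K1 at chr17:34000298-34000597 and plus for H2-D1 at chr17:35262844-35263143, B2m at chr2:122147437-122147736 and Tap1 at chr17:34187306-34187605.
H2-K1: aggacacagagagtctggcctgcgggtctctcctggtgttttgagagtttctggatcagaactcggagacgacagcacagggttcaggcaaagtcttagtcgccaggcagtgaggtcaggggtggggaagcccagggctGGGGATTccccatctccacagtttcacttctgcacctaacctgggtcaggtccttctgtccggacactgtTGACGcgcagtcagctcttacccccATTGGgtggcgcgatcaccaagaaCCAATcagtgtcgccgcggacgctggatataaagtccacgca
H2-D1: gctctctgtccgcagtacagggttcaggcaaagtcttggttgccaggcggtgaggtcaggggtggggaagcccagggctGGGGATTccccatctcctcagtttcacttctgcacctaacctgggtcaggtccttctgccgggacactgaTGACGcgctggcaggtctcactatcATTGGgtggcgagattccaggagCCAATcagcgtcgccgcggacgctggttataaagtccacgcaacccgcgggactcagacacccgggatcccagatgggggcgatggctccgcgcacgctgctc
B2m: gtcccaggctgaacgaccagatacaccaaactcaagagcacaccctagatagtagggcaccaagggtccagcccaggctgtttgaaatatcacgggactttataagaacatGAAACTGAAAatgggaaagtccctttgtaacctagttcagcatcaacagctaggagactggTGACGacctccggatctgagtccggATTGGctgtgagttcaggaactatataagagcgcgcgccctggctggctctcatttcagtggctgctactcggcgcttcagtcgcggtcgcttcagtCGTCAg
Tap1: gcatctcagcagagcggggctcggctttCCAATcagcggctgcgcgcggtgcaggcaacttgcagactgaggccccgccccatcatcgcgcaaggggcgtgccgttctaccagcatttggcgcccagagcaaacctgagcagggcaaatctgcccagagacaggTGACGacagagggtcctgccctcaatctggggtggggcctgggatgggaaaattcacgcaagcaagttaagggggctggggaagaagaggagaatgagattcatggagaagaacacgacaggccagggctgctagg
In H2-K1, H2-D1 and B2m a TGACG was followed after 20 bases by ATTGG, the CCAAT box read on the other strand. TGACG began 41 bases before the start in H2-K1, 101 bases before it in H2-D1 and 78 bases before it in B2m. This arrangement stood in 4 of the 9 member promoters and in 31 of all 32851 promoters (0.0944%). By gene it stood in 3 of the 8 matched members and in 27 genes in all, among them H2-M3, and it was chosen after the sequences were seen. H2-K1 has 2 RefSeq starts, and from the other one TGACG began 55 bases before the start. Alone, TGACG stood in 5 of the 8 members and in 20.81% of all promoters, and CCAAT in 7 of 8 and in 37.41%. The promoters of Tap1 and Psmb9 overlap on opposite strands. Their TGACG is the same site, as is their CCAAT, and each was counted for both genes. GGGGATT stood in H2-K1 and H2-D1 (3.1% of all), the GAAA pair in B2m and H2-T23 (3.44%) and the STAT site in Psmb8 (8.3%). These are matches of letters, and the count table does not show which factor bound them.

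The classical heavy chains present peptides to CD8 T cells. H2-K1 (chromosome 17, 33996017 to 34000347, minus strand, GRCm38 with GENCODE M21, as for all positions below) had 542, 1183 and 1291 CPM in libraries labelled CKO 1 to 3, against 1066, 531 and 536 CPM in flox 1 to 3. The library labelled CKO 1 lay with flox 2 and flox 3, and the groups overlapped. H2-K1 averaged 1005 ± 405 CPM in CKO and 711 ± 307 CPM in flox (SD, n = 3 each), a log2 fold change of 0.50 (SE 0.39). Within the classes the log2 ratio of CKO over flox was 0.21 in the haemoglobin-negative and 0.02 in the haemoglobin-positive libraries. By class, H2-K1 had 1180 ± 112 CPM in the negative and 537 ± 5.21 CPM in the positive libraries (SD, n = 3 each), so the 3 positive libraries were close to each other across both genotypes.

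H2-D1 (chromosome 17, 35262730 to 35267499, plus strand) had 1004, 2103 and 1868 CPM in libraries labelled CKO 1 to 3, against 1544, 1072 and 965 CPM in flox 1 to 3. The lowest CKO library lay between flox 2 and flox 3. H2-D1 had the smallest unadjusted p of the 10 members, 0.156 by edgeR, at a log2 fold change of 0.47 (SE 0.30), and the log2 ratio of CKO over flox was 0.36 within the negative and -0.02 within the positive class. H2-T23 (chromosome 17, 36029773 to 36032855, minus strand) encodes Qa-1, the non-classical heavy chain that natural killer receptors of the NKG2 family read. It had 148, 315 and 277 CPM in libraries labelled CKO 1 to 3, against 281, 160 and 170 CPM in flox 1 to 3. The library labelled CKO 1 was the lowest of all 6, and flox 1 exceeded CKO 3. Its log2 fold change was 0.28 (SE 0.32), and it was -0.04 with the class as a term.

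Heavy chain genes of this locus are near-identical in parts, so their values are uncertain. The deposited values of H2-K1, H2-D1, H2-T23 and Tapbp were fractional in 6 of 6 libraries, those of Tap1 in 5 and those of Tap2 and Psmb9 in 3. Those of B2m, Psmb8 and Nlrc5 were whole in all 6, so fractional values do not mark the heavy chains alone. Per exon base, H2-K1 stood below H2-D1 in every library, at ratios of 0.685, 0.715 and 0.878 in the libraries labelled CKO 1 to 3, against 0.877, 0.630 and 0.706 in flox 1 to 3. The mean log2 ratio was 0.05 higher in CKO (exact permutation test, two-sided p 0.7, where 0.1 is the smallest p the 20 splits allow).

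B2m, the light chain that every class I heavy chain needs (chromosome 2, 122147686 to 122153083, plus strand), was the most abundant of the 10 genes. It had 4162, 8669 and 7068 CPM in libraries labelled CKO 1 to 3, against 6595, 5327 and 4279 CPM in flox 1 to 3. CKO held both the lowest and the highest value. B2m had a log2 fold change of 0.30 (SE 0.29). Within the negative class both CKO libraries lay above flox 1 (log2 ratio 0.25), and within the positive class the CKO library lay below both flox libraries (-0.21).

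The heavy chains were also set against B2m within each library, which does not depend on how libraries are scaled. Per exon base, the H2-D1 to B2m ratio was 0.0987, 0.0992 and 0.108 in the libraries labelled CKO 1 to 3, against 0.0958, 0.0823 and 0.0922 in flox 1 to 3. Here the 3 CKO libraries lay above the 3 flox libraries, by 0.18 in mean log2 ratio. The exact permutation p was 0.1, the smallest this design allows, and the Benjamini-Hochberg adjusted p was 0.8 over the 8 ratios compared. The mean log2 difference of the H2-K1 to B2m ratio was 0.23 (exact permutation p 0.4), and that of the H2-T23 to B2m ratio was -0.003 (exact permutation p 1).

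The peptide transporter and its loading partner had the same 3 high and 3 low libraries, in different orders. Tap1 and Tap2 encode the subunits of TAP, and Tapbp encodes tapasin, which bridges TAP to the empty heavy chain. Tap1 (chromosome 17, 34187553 to 34197225, plus strand) had 26.3, 51.0 and 58.3 CPM in libraries labelled CKO 1 to 3, against 60.7, 30.1 and 32.3 CPM in flox 1 to 3. The highest of the 6 was a flox library and the lowest a CKO library. Its log2 fold change was 0.14 (SE 0.37), and the log2 ratio of CKO over flox was -0.15 within the negative and -0.25 within the positive class.

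Tap2 (chromosome 17, 34203527 to 34216321, plus strand) had 21.3, 28.5 and 43.4 CPM in libraries labelled CKO 1 to 3, against 38.0, 24.4 and 20.4 CPM in flox 1 to 3. CKO 2, whose code it shares with CKO 3 but for the eye, lay closer to flox 2 than to CKO 3. Tap2 had a log2 fold change of 0.17 (SE 0.33). Per exon base, Tap1 exceeded Tap2 in every library, by 1.44, 2.09 and 1.56 times in the libraries labelled CKO 1 to 3, against 1.86, 1.44 and 1.85 times in flox 1 to 3. The ratio's mean log2 difference was -0.02 (exact permutation p 1).

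Tapbp (chromosome 17, 33915899 to 33929292, plus strand) had 125, 167 and 187 CPM in libraries labelled CKO 1 to 3, against 158, 108 and 116 CPM in flox 1 to 3. Only flox 1 lay within the CKO range. Tapbp had a difference of 0.33 on the log2 scale in CKO over flox (SE 0.22). Within both classes the CKO libraries lay above the flox libraries, with log2 ratios of 0.17 in the negative and 0.16 in the positive class. They also did so for H2-K1, making 2 of the 10 members, where 9.63% of all tested genes did so. For Tap1 the CKO libraries lay below the flox libraries within both classes. The share of all genes in that direction was not counted. With 1 library of a genotype on one side of each class, these ratios carry no test.

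The immunoproteasome subunits had the smallest ratios of highest to lowest library among the 10 genes, 1.55 for Psmb8 and 1.70 for Psmb9, next to 1.73 for Tapbp. Psmb8 encodes the chymotrypsin-like subunit β5i, and Psmb9 the subunit β1i. Psmb9, Tap1, Psmb8 and Tap2 lie side by side on chromosome 17 between 34181987 and 34216321, and Psmb9 and Tap1 overlap head to head by 212 bases. The strand setting of the counting is not given in the sources used here, so reads in that overlap cannot be assigned. Psmb8 (34197721 to 34201454, plus strand) had 513, 712 and 597 CPM in libraries labelled CKO 1 to 3, against 630, 468 and 458 CPM in flox 1 to 3. Flox 1 lay within the CKO range and the other 2 flox libraries below it. The log2 fold change was 0.23 (SE 0.20), and the log2 ratio of CKO over flox was 0.05 within the negative and 0.15 within the positive class.

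Psmb9 (34181987 to 34187764, minus strand) had 162, 215 and 222 CPM in libraries labelled CKO 1 to 3, against 229, 154 and 134 CPM in flox 1 to 3. The highest of the 6 libraries was flox 1 and the lowest was flox 3. Psmb9 had a log2 fold change of 0.21 (SE 0.24). Within the negative class both CKO libraries lay below flox 1 (log2 ratio -0.07), and within the positive class the CKO library lay above both flox libraries (0.17). Such a full split in opposite directions was seen for B2m and Psmb9, 2 of the 10 members, and for 25.1% of all tested genes, so the share of the members is near the background.

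Each immunoproteasome subunit replaces a constitutive one, and their ratio within a library measures the exchange at the level of RNA. Per exon base, the ratio of Psmb8 to Psmb5 was 1.46, 2.45 and 1.84 in the libraries labelled CKO 1 to 3, against 1.84, 1.53 and 1.37 in flox 1 to 3. Transcripts of the β5i subunit thus outnumbered those of its constitutive partner in all 6 libraries. The ratio of Psmb9 to Psmb6 was 0.189, 0.282 and 0.323 in the libraries labelled CKO 1 to 3, against 0.324, 0.215 and 0.154 in flox 1 to 3, so Psmb9 stayed below its partner in all 6. For Psmb10, which encodes β2i, the ratio to Psmb7 was 0.838, 1.34 and 1.38 in the libraries labelled CKO 1 to 3, against 1.38, 0.966 and 0.829 in flox 1 to 3. In all 3 ratios the genotypes overlapped. The mean log2 differences were 0.26, 0.23 and 0.16 in this order, with two-sided exact permutation p of 0.5, 0.7 and 0.8. For each of the 3 ratios the haemoglobin-negative libraries lay above all haemoglobin-positive ones, by 0.48, 0.75 and 0.64 in mean log2 ratio.

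**Figure D2:**
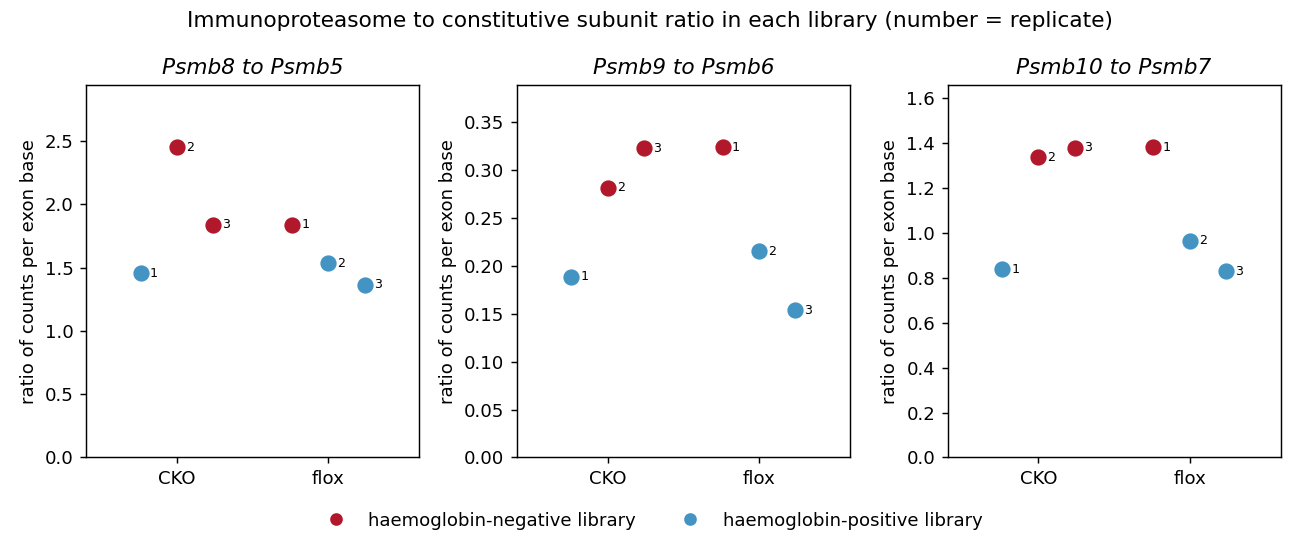
Ratio of immunoproteasome to constitutive subunit transcripts per exon base within each library (vertical axes from 0, replicate numbers beside the points) in CKO and flox. Red points are haemoglobin-negative and blue points haemoglobin-positive libraries; the Psmb8 to Psmb5 ratio lies above 1 in all 6 libraries, from 1.37 to 2.45, and red lies above blue in each panel.

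Nlrc5 encodes the transactivator of class I genes and is itself induced by interferon-γ. It lies on chromosome 8 at 94434356 to 94527272 (plus strand) and was the least abundant of the 10. It had 6.99, 27.5 and 18.8 CPM in libraries labelled CKO 1 to 3, against 24.1, 11.4 and 13.2 CPM in flox 1 to 3. Its highest and lowest values, which differed by 3.93 times, were both in CKO libraries. The log2 fold change was 0.12 (SE 0.50), the smallest change and the largest error of the 10. Within the positive class the CKO library lay below both flox libraries (log2 ratio -0.82), within the negative class the ratio was -0.06, and with the class as a term the log2 fold change was -0.43 (SE 0.29).

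**Figure D3:**
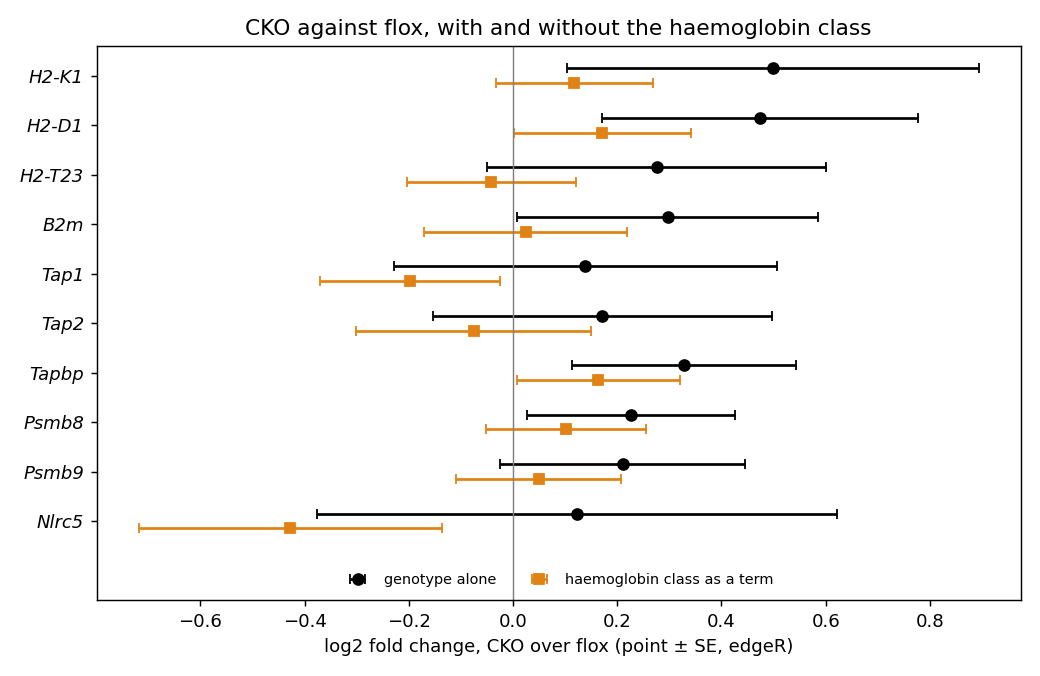
Log2 fold change of CKO over flox (horizontal axis, point ± SE, edgeR) for each of the 10 genes, from the fit on genotype alone (black circles) and from the fit with the haemoglobin class as a term (orange squares). All 10 black points lie above 0, from 0.12 to 0.50, and 4 of the 10 orange points (H2-T23, Tap1, Tap2 and Nlrc5) lie below 0.

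Per kilobase of exon, the 10 genes held the same order of mean level in both genotypes. From high to low it was B2m, H2-D1, H2-K1, Psmb8, H2-T23, Psmb9, Tapbp, Tap1, Tap2 and Nlrc5. B2m had 7713 ± 2657 CPM per kilobase in CKO and 6279 ± 1348 in flox (SD, n = 3 each), and Nlrc5 had 2.18 ± 1.27 in CKO and 2.0 ± 0.847 in flox. Neighbours whose ranges of mean ± SD overlapped in both genotypes were H2-D1 with H2-K1, H2-K1 with Psmb8, H2-T23 with Psmb9, and Tap1 with Tap2. That SD is a spread between libraries and does not measure the order within a library. Within every library H2-K1 stood below H2-D1, and Tap1 above Tap2, as the ratios above show. The transporter and Nlrc5 were thus the rarest transcripts of the set in each genotype, and the light chain exceeded every heavy chain.

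The haemoglobin class, not the genotype label, split all 10 genes without overlap. For 10 of 10 the 3 haemoglobin-negative libraries (CKO 2, CKO 3 and flox 1) lay above the 3 haemoglobin-positive ones (the library labelled CKO 1, flox 2 and flox 3), where 11.6% of all tested genes did so, and it was 10 of 10 with total count scaling too. The log2 ratio of the class means, negative over positive, was 1.15 for Nlrc5, 1.14 for H2-K1, 0.94 for Tap1, 0.87 for H2-T23 and 0.86 for H2-D1. It was 0.74 for Tap2, 0.70 for B2m, 0.56 for Psmb9, 0.55 for Tapbp and 0.43 for Psmb8, so the proteasome subunits and tapasin differed least. The median was 0.80, against -0.009 for all tested genes. These ratios carry no test, since the classes were defined from the data. Between the libraries of 1 code, whose labels differ only in the eye letters, the median absolute log2 difference of the 10 genes was 0.19 for the CKO code and 0.13 for the flox code. The widest were for Tap2 (-0.61, OD over OS) and Nlrc5 (0.55) of the CKO code. Each class holds 1 code of each genotype. The class therefore cannot be told apart from differences between the mice, or the injections, that the codes may stand for.

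Marker genes of several cell types moved with the class as well, and the counts below stand beside 11.6% of all tested genes that were higher, and 10.8% that were lower, in every negative library. The 9 MHC class II genes, which antigen-presenting cells use for CD4 T cells, summed to 18794 to 35645 CPM in the negative and 6350 to 8685 CPM in the positive libraries, and all 9 lay higher in every negative library. The 9 dendritic cell markers summed to 158 to 174 CPM in the negative and 64.7 to 101 CPM in the positive libraries, with 6 of 9 higher in every negative library. Clec9a was at 0 in flox 3. The 16 T and natural killer cell markers summed to 265 to 330 CPM in the negative and 96.5 to 266 CPM in the positive libraries, with 7 of 16 higher in every negative library. Cd3g was at 0 in the library labelled CKO 1, and Gzma and Prf1 were at 0 in flox 2. Other T cell genes did not part by class: Cd2 was highest in the library labelled CKO 1 (7.05 CPM) and had 1.40 CPM in flox 1, and Cd4 had 1.55 CPM in flox 1, below flox 2 and flox 3 at 1.97 and 2.15 CPM. The 10 Müller glia and astrocyte markers summed to 16956 to 41401 CPM in the negative and 12493 to 14690 CPM in the positive libraries. Most of each sum was Apoe, at 15498 to 40136 CPM in the negative and 11742 to 13323 CPM in the positive libraries. Counted gene by gene, 4 of the 10 were higher in every negative library. The 12 rod markers summed to 9852 to 10094 CPM in the negative and 13794 to 24929 CPM in the positive libraries, with 11 of 12 lower in every negative library. The 13 microglia markers had a median log2 ratio by class of -0.84, with 0 higher and 1 lower in every negative library. They summed to 4574 to 7020 CPM in the negative and 4694 to 9657 CPM in the positive libraries. Between genotypes their median log2 fold change was -0.78, with 4 positive, 9 negative and 0 called. Of the 13, 2 had an unadjusted p under 0.05 (edgeR), where 2.81% of all tested genes did. The 12 monocyte markers had a median log2 ratio by class of 0.62, with 5 higher and 2 lower in every negative library, and sums of 6644 to 21340 CPM in the negative and 7014 to 9969 CPM in the positive libraries. Their sums did not overlap between genotypes, at 9969 to 21340 CPM in CKO and 6644 to 7689 CPM in flox (two-sided exact permutation p 0.1, the smallest possible). Lyz2 alone had 8978, 19890 and 9394 CPM in libraries labelled CKO 1 to 3, against 5438, 6632 and 6169 CPM in flox 1 to 3. The sums thus mostly follow this 1 gene. Of the 12 markers, 3 lay higher in every CKO library, where 3.88% of all tested genes did. The median log2 fold change of the 12 monocyte markers was 0.87, and 0 of them were called. Of the 12, 4 had an unadjusted p under 0.05 (edgeR), where 2.81% of all tested genes did. The part of these cells in the levels of the class I genes was not tested. In bulk libraries fewer cells of a type and less RNA per cell cannot be told apart.

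The CD8 co-receptor genes, whose product binds class I on the target cell, were singled out after their values were seen. Cd8b1 had 14.5, 17.1 and 12 CPM in CKO 2, CKO 3 and flox 1, against 0.184, 0 and 0.0632 CPM in the library labelled CKO 1, flox 2 and flox 3. Cd8a had 5.69, 11 and 7.02 CPM in the same negative libraries, against 0.0613, 0.518 and 0.0632 CPM in the positive ones. Both genes were thus counted in the libraries in which class I was high, and 5 of the 6 values in the others were at or under 3 counts.

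Other genes of the pathway were taken from lists by role. Among the 7 tested class I heavy chains outside the members, fold changes in CKO were positive for 6 and negative for 1, and 0 were called (edgeR). Their median log2 fold change was 0.44, against 0.004 for all tested genes, and 5 of 7 lay higher in every haemoglobin-negative library (11.6% of all genes). H2-Q7 had 41.5, 144 and 119 CPM in libraries labelled CKO 1 to 3, against 101, 35.9 and 35.7 CPM in flox 1 to 3 (log2 fold change 0.81, SE 0.56). H2-T22 had the same 3 high and 3 low libraries, with 71.1, 166 and 125 CPM in CKO and 112, 82.0 and 72.4 CPM in flox. H2-M3, which presents formylated peptides and whose promoter holds the spaced motifs of H2-K1, had 60.5, 113 and 77.9 CPM in CKO and 76.2, 68.7 and 54.9 CPM in flox.

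The constitutive proteasome did not part by class as the immunoproteasome did. Of the 4 tested immunoproteasome and activator genes outside the members, Psmb10, Psme1 and Psme2 lay higher in every haemoglobin-negative library, as did 11.6% of all tested genes. Psmb10 had 186, 229 and 246 CPM in libraries labelled CKO 1 to 3, against 236, 179 and 161 CPM in flox 1 to 3. Of the 14 constitutive core genes 0 lay higher and 1 lower in every negative library, and of the 19 regulatory particle genes 0 lay higher and 4 lower, where 11.6% and 10.8% of all genes did so. Their median log2 ratios by class were -0.08 and -0.16. Psmb5, Psmb6 and Psmb7 had log2 fold changes of -0.02, 0.01 and 0.05 in CKO over flox. Of these 3 lists 0 genes were called between the genotypes (edgeR).

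Of 18 tested genes of peptide loading and trimming outside the members, fold changes in CKO were positive for 5 and negative for 13, with a median of -0.09 and 0 called. The lowest unadjusted p was 0.00858 (edgeR, adjusted p 0.9996) for Thop1, a cytosolic peptidase that destroys class I peptides. Thop1 had 5.40, 4.44 and 4.68 CPM in libraries labelled CKO 1 to 3, against 10.3, 12.3 and 7.84 CPM in flox 1 to 3, and the groups did not overlap. Pdia3, the oxidoreductase of the loading complex, had 504, 546 and 371 CPM in CKO and 551, 699 and 639 CPM in flox. By class, 3 of the 18 lay higher in every negative library, near the 11.6% of all tested genes, and 7 lay lower, where 10.8% of all genes did.

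The regulators and targets of the interferon pathway gave no call between genotypes either. Fold changes were positive for 50.6% of all tested genes. They were positive for 10 of 17 class I transcription regulators (median 0.07) and 5 of 14 interferon-γ-induced GTPases (median -0.08). The same held for 11 of 19 type I interferon response genes (median 0.06) and 8 of 9 interferon receptor and signalling genes (median 0.19), and 0 genes of these 4 lists were called (edgeR). Irf1, a factor that drives Psmb9 and Tap1, had 60.3, 125 and 96.1 CPM in libraries labelled CKO 1 to 3, against 112, 146 and 52.5 CPM in flox 1 to 3, and did not follow the class order. Ciita, the class II counterpart of Nlrc5, had 9.32, 28.8 and 28.7 CPM in CKO and 23, 5.86 and 11.9 CPM in flox. Higher in every negative library were 8 of 17 regulators, 8 of 14 GTPases, 7 of 19 type I response genes and 3 of 9 receptor genes (11.6% of all tested genes), with median log2 ratios by class of 0.39, 0.75, 0.50 and 0.37. Of 11 class I receptor genes of myeloid and lymphoid cells, fold changes were positive for 7 and negative for 4 between genotypes, 0 were called, and 5 lay higher in every negative library (11.6% of all genes).

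**Figure D4:**
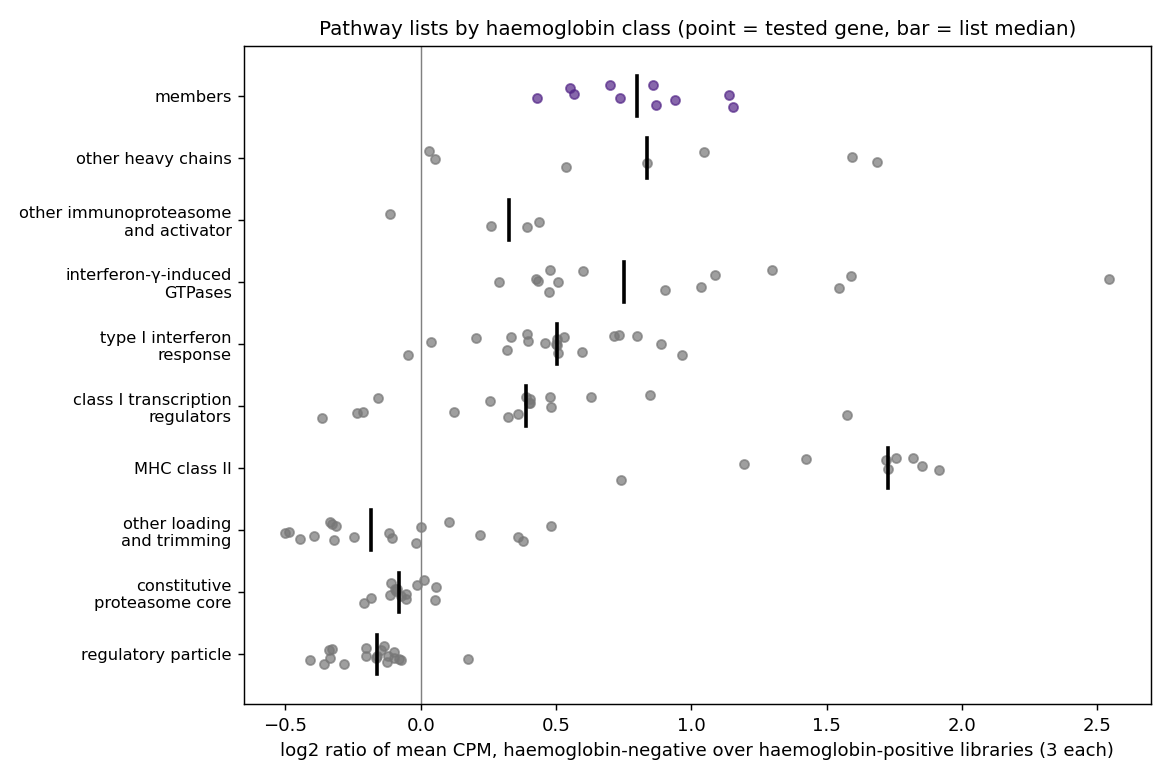
Log2 ratio of mean CPM, haemoglobin-negative over haemoglobin-positive libraries (horizontal axis, 3 libraries each), for every tested gene (points) of the 10 members and of 9 other lists, with the list median as a bar. The members (median 0.80), the other heavy chains (0.84), the GTPases (0.75) and the MHC class II genes (1.73) lie to the right of 0, and the constitutive core (-0.08) and regulatory particle (-0.16) lie near or left of it.

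Across the 6 libraries the mean centred log2 level of the 10 genes was -0.46, 0.43 and 0.40 in the libraries labelled CKO 1 to 3, against 0.35, -0.34 and -0.38 in flox 1 to 3. H2-T23 lay nearest to this profile and Nlrc5 farthest from it, with root mean square differences of 0.0743 and 0.335. Among 6180 other genes of at least 20 CPM on average, the 8 nearest were Ptk2b, Zbp1, B4galt6, Ssh1, Pkib, Spin1, Cers6 and Coro2a, at 0.0446 to 0.0954, where the median gene differed by 0.452. Ptk2b, which encodes the tyrosine kinase PYK2, had 46.4, 81.6 and 86.9 CPM in libraries labelled CKO 1 to 3, against 83.3, 48.7 and 47.4 CPM in flox 1 to 3. Zbp1, an interferon-induced sensor of Z-form nucleic acids, had 95.2, 160 and 152 CPM in CKO and 152, 105 and 96.7 CPM in flox. The likeness was measured over 6 libraries that fall into 2 classes, so any gene that parts by class can rank high.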

How the data were processed

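Estimated counts per gene symbol, with up to 2 decimals, were made by the authors and deposited unscaled in 1 table. Per the submitters' processing notes, fastp 0.18.0, HISAT2 2.2.4 and the build mm10 were used. How reads were counted, with which annotation and strand setting, is not given in the sources used here. Of 21956 rows, 83 without a symbol (0.0122% to 0.0185% of counts) were left out and 22 repeated ones were summed.

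The estimated counts were rounded and fitted on genotype with edgeR 4.0.16 (R 4.3.3; TMM, filterByExpr, robust quasi-likelihood, prior count 0.125, Benjamini-Hochberg over 13477 genes), after the fit was tested on simulated data. Ratios were compared by exact permutation over libraries. DESeq2 1.42.0, limma-voom 3.58.1 and other scalings, blocks and left-out libraries were tried. Groups came from the titles. Exon lengths and positions came from GENCODE M21.

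The members and lists were chosen with earlier results of these data known. The text names all members, up to 3 genes per list by smallest p, fixed reference genes and the 8 of most alike pattern, and some list genes were named after their values were seen. Some list genes are not reported here.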

Additional observations from a re-analysis of the deposited data

Results flagged for a closer look

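B2m and Psmb9 differed between CKO and flox in opposite ways in the haemoglobin classes, with every library on its side. For B2m the log2 ratio of CKO over flox was 0.25 in the haemoglobin-negative libraries and -0.21 in the haemoglobin-positive ones. For Psmb9 it was -0.07 in the negative and 0.17 in the positive libraries. This was seen for 2 of the 10 members and for 25.1% of all tested genes, so it is not a result about these genes. The difference between the classes was not tested, and 1 library of a genotype stands on one side of each comparison.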

How the results depend on the processing

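With 3 libraries against 3, possibly from 2 mice a genotype, the errors of the members (SE 0.20 to 0.50 on the log2 scale) limit what could be called. The count of genes called between genotypes was 0 by edgeR, 23 by DESeq2 and 2 with the haemoglobin class as a term, and 0 under the other edgeR and limma settings. No member was called under any of 16 settings. H2-K1, H2-D1, B2m, Tapbp, Psmb8 and Psmb9 kept a positive fold change in all 16. H2-T23 was -0.025 with libraries of a shared code summed and -0.042 with the class term. Tap1 was -0.0049 with total count scaling, -0.17 summed, -0.20 with the class term and -0.088 to 0.53 with 1 library left out. Tap2 was -0.039 summed, -0.076 with the class term and -0.15 to 0.47 with 1 library left out. Nlrc5 was -0.042 with total count scaling, -0.32 summed, -0.16 with the code as a random block, -0.43 with the class term and -0.34 to 0.52 with 1 library left out. Summing also leaves fewer samples. The cause of these reversals, summed or not, was not tested. Total count scaling moved the median of all genes to -0.12 and left 8 of 10 members positive, with a median of 0.11. With libraries of a shared code summed, 6 of 10 members were positive and 4 negative, with a median of 0.03. The members' median was 0.49 without CKO 1, 0.52 without flox 1, 0.12 without CKO 2, 0.15 without flox 2, 0.15 without flox 3 and 0.19 without CKO 3, against 0.25 with all libraries.

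Same-numbered CKO and flox libraries share only a number in their titles, and their description codes differ. Their deviations correlated at -0.32, 0.04 and -0.33, against -0.14 to 0.40 for differently numbered libraries. With 3 libraries a group these correlations cannot settle whether libraries were paired. With the title number as a replicate block 0 genes were called and the 10 members had fold changes of 0.04 to 0.51.

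Among the ratios, the log2 difference of Psmb9 to Psmb6 was -0.10 within the negative class and -0.035 to 0.50 with 1 library left out. Psmb10 to Psmb7 was -0.026 within the negative and -0.095 within the positive class. Tap1 to Tap2 was -0.18 to 0.085 with 1 library left out. H2-K1 to H2-D1 was -0.15 within the negative class and -0.062 to 0.18 with 1 library left out. H2-K1 to B2m was -0.034 within the negative class. H2-T23 to B2m was 0.038 within the positive class and -0.15 to 0.098 with 1 library left out.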
